A study of Mus musculus with 9 samples.

Results

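Axon guidance ligands and receptors were described here in lung endothelial cells of mice at 3 ages. The 66 protein-coding mouse genes were chosen by symbol alone, out of 21883, and comprised 20 semaphorins, 9 plexins, 14 Eph receptors, 8 ephrins, 3 slits, 4 Robo receptors, 4 netrins and 4 Unc5 receptors. The cells were lung endothelial cells, sorted by fluorescence from mice at an infant, a young adult and a mature adult age, with 3 libraries per age. The labels name no strain, sex, treatment, genetic change or sort marker at any age. Ages in days are not stated, nor is it stated that each library is from its own animal. The p-values below therefore speak of the spread among libraries, which may be technical. Each library was assayed by ATAC-seq, which marks accessible DNA by letting a transposase insert sequencing adapters there. What is known of a library is a list of peaks, the stretches called open. According to its title, the study asks how the chromatin of endothelial cells changes between an angiogenic and a quiescent state.

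Guidance cues were named for steering growing nerve fibres, and vessels use the same families. Semaphorins act through plexins, often with neuropilins as co-receptors, slits act through Robo receptors, and netrins act through Unc5 receptors and Dcc. Ephrins are bound to the membrane and signal through Eph receptor tyrosine kinases on the touching cell, with ephrin-B2 marking arterial and EphB4 venous endothelium.

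The lists held 88856 to 94646 peaks in infant libraries, 67550 to 68366 in young adult libraries and 59793 to 64208 in mature adult libraries. Sequencing depth is unknown, and a difference in depth between ages cannot be told apart from a difference in the number of open sites. Each peak was counted for the gene around its centre or, between genes, for the gene ending nearest within 100 kb. A gene was called different between ages only when limma passed a Benjamini-Hochberg adjusted p of 0.05 in the same direction both on peak numbers as counted and on numbers scaled to each library's total. The adjusted p printed below is the larger of the pair. The 10 endothelial marker genes (among them Pecam1, Cdh5 and Kdr) held 204 to 217 peaks per infant library, 178 to 196 per young adult library and 163 to 193 per mature adult library, and none was called. Markers of other cells were not all level. The 11 fibroblast and mural marker genes held 92 to 98 peaks per infant library, 36 to 39 per young adult library and 33 to 34 per mature adult library. Of these 11, 6 were called lower at each adult age against infants, and none was at 0 in all libraries. Of all genes tested, 9.26% were called lower in young adults and 13.8% in mature adults. Pdgfra, Tcf21, Acta2, Tbx4 and Gli1 were called at neither adult age. Gli1 had 2, 3 and 4 peaks in infant libraries and 4 in every adult library. Pdgfra had 17, 16 and 14 peaks in infant libraries and 9 or 10 in every adult library. The part of such cells in the results below was not tested. Lymphatic marker genes held 30 to 32, 20 to 21 and 20 to 22 peaks at the 3 ages in the same order, with Prox1 and Mmrn1 lower in young adults and Pdpn and Ccl21a at 0 throughout. The other lymphatic markers, Lyve1 and Flt4, were not called. Lyve1 had 6, 5 and 5, then 4, 5 and 5, then 5, 4 and 6 peaks. Flt4 had 12 in each infant library, then 13, 12 and 11, then 11, 12 and 10. Epithelial markers held 24 to 31, 14 to 20 and 14 to 15 peaks, with Sftpb lower in mature adults and Sftpc at 0. Leukocyte markers held 12 to 13, 9 to 15 and 8 to 10 peaks, with Cd68 and Itgam at 0. Nerve and glia markers held 13 to 17, 8 to 10 and 8 to 11 peaks, and none was called. A pair of adult libraries, mature adult replicate 1 and young adult replicate 3, differed from the rest. Their peaks were narrower, 495 and 487 bp on average against 530 to 541 bp in the other adult libraries, and fewer of them lay near a gene (90.7% and 90.5% against 92.8% to 93.6%).

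Promoter sequences were available for 57 of the 66 genes, as 73 windows of 300 bases around annotated starts, given by RefSeq for GRCm38.p6. The sequences run 5′ to 3′ along the gene, and capitals mark the ETS core CCGGAA and the GC box GGGCGG on either strand. The first 4 are shown because each age had a peak there in all of its libraries or in none, and the ages differed: Ephb2 (chr4:136835963-136836262, minus strand), Sema3d (chr5:12382916-12383215, plus strand) and Robo1 (chr16:72662899-72663198, plus strand) in infants only, and Robo2 (chr16:74411776-74412075, minus strand) in infants and young adults only. The last 3 are examples of genes with fewer peaks in adults whose window was covered in all 9 libraries: Slit2 (chr5:47982905-47983204, plus strand), Ephb1 (chr9:102354644-102354943, minus strand) and Ephb3 (chr16:21204545-21204844, plus strand). Epha1, Plxnb1 and Unc5a also met this description and are not shown.
Ephb2: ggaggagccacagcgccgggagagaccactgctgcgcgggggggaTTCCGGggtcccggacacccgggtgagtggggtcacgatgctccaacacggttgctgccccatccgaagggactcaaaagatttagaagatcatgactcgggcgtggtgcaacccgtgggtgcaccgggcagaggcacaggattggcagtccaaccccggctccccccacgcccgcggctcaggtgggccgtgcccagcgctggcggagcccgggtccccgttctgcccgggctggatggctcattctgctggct
Sema3d: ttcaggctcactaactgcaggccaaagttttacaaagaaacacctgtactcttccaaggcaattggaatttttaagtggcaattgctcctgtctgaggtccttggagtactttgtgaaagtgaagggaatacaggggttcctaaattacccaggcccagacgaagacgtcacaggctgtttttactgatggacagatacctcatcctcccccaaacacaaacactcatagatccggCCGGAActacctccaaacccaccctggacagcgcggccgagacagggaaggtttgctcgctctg
Robo1: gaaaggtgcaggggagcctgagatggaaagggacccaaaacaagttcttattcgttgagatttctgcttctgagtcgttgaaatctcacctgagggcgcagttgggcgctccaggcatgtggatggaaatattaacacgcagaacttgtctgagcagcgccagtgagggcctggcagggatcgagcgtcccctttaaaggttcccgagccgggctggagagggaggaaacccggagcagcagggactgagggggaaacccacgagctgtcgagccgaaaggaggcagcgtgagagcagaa
Robo2: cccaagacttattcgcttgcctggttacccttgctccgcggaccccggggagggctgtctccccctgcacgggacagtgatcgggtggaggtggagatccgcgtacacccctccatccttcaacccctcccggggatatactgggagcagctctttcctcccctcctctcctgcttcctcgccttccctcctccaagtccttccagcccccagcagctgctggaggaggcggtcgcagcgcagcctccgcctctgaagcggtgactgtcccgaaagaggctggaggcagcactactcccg
Slit2: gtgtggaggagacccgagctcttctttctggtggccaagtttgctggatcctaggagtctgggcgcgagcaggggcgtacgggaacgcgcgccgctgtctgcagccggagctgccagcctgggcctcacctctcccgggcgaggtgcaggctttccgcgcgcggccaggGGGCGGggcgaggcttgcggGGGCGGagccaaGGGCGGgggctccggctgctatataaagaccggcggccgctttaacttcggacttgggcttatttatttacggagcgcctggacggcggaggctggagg
Ephb1: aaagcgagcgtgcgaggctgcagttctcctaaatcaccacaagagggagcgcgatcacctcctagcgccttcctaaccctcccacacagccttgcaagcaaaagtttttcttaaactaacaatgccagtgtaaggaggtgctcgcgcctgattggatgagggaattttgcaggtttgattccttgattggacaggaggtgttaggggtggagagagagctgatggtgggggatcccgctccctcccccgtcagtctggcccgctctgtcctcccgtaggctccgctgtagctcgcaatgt
Ephb3: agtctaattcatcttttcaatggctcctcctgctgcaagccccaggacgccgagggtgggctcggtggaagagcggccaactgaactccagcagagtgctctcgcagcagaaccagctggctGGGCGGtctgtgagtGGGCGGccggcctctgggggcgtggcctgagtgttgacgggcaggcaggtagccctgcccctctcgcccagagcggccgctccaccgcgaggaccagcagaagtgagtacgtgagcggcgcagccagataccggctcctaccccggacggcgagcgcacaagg

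The window of Ephb2, which encodes a receptor for B-type ephrins, was covered by peaks over 300, 300 and 124 of its 300 bases in the infant libraries and over 0 bases in every adult library. The window of Robo1, a slit receptor, was covered over 300, 300 and 264 bases in infant libraries and over 0 in adult libraries. A wider stretch beyond the Robo1 window also carried peaks in young adult replicates 1 and 2 and mature adult replicate 1, so the absence concerns the window and not its surroundings. Sema3d, a secreted semaphorin, had 116, 170 and 126 covered bases in infant libraries and 0 in adult libraries, with a peak of young adult replicate 3 ending outside the window. At Robo2, another slit receptor, 1 of 3 annotated windows was covered over 299, 226 and 300 bases in infant libraries, 58, 180 and 69 bases in young adult libraries and 0 bases in mature adult libraries. The other windows of Robo2 had no peak in any library. Less even within young adults were the windows of Epha5, Ntn3 and Sema4g, covered in all infant and no mature adult libraries and in 2, 2 and 1 young adult libraries in that order.

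Among the 73 windows, 3 (4.11%) were covered in all infant and no adult libraries, against 2.14% of the 21262 windows of all genes. A further 37 (50.7%, against 49.0% of all windows) were covered in all 9 libraries, and 16 (21.9%, against 39.9%) in none. None was covered in all adult and no infant libraries (0.0329% of all windows), and the window of Robo2 was the 1 covered in all infant and young adult but no mature adult libraries (0.259%). The GC box occurred in 69.9% of guidance windows and in 46.2% of all windows, and the ETS core in 9.59% against 18.7%. The remaining motifs searched on both strands, with any overlap allowed, were found in 0% to 16.4% of guidance windows. They were AP-1 TGANTCA (4.11% against 6.99% of all windows), forkhead TGTTTAC (0% against 3.01%), SOX ACAAAG (13.7% against 16.8%), the GATA site AGATAA (4.11% against 9.65%), E-boxes CACGTG (6.85% against 7.84%) and CAGCTG (16.4% against 15.6%), NFI TTGGCA (5.48% against 13.1%) and RBPJ GTGGGAA (5.48% against 6.07%). In the printed windows, Ephb2 and Sema3d each held 1 ETS core, Slit2 held 3 GC boxes, Ephb3 held 2, and Robo1, Robo2 and Ephb1 held neither. A match is a description of letters and not of bound protein.

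The first question of the design was how open sites at these genes differ between adults and infants. Together the 66 genes held 723 to 753 peaks per infant library, 549 to 569 per young adult library and 501 to 535 per mature adult library. As a share of the library's assigned peaks this was 0.878% ± 0.011 in infants, 0.890% ± 0.036 in young adults and 0.907% ± 0.020 in mature adults (SD, n = 3 each). In bulk samples fewer cells of a kind cannot be told apart from fewer open sites per cell. Of the 66 genes, 61 had a mean of at least 1 peak per library and were tested. In young adults 10 of the 61 (16.4%) were called lower than in infants, against 9.26% of all 14448 genes tested. None was called higher, against 1.13% of all genes. In mature adults 10 (16.4%) were called lower than in infants, against 13.8% of all genes, and none higher, against 1.44%. Both comparisons use the same 3 infant libraries, and the share of guidance genes was not tested against that of all genes. The median log2 difference over the 61 genes was 0.12 scaled and -0.28 unscaled in young adults (0.13 and -0.25 over all genes), and 0.08 scaled and -0.46 unscaled in mature adults (0.14 and -0.31 over all genes).

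Without any fit, all young adult libraries lay below all infant libraries at 25 of the 61 genes, against 27.5% of all genes, and all mature adult libraries lay below all infant libraries at 27, against 35.6%. At no guidance gene did all young adult libraries lie above the infants (1.81% of all genes), and all mature adult libraries did so at 1 gene, Epha6 (1.79%). On scaled numbers alone, 12 genes were higher in young adults and 15 in mature adults (25.6% and 30.0% of all genes), and on unscaled numbers alone none was. With each list cut to the 59793 widest peaks, the length of the shortest list, 5 guidance genes were called higher and 7 lower in young adults than in infants (6.0% and 4.22% of all genes tested), and 11 higher and 8 lower in mature adults (8.86% and 7.78%). Called higher at both ages in that setting were Sema3c, Sema5a, Plxna1, Epha6 and Unc5b, and in mature adults Sema3a, Sema3f, Sema6b, Sema7a, Epha2 and Robo4 were called higher as well. On covered bases, 2 were higher and 17 lower in mature adults (1.21% and 19.0% of all genes). Without the 2 libraries that differed, 1 was higher and 15 lower in mature adults (1.67% and 15.4%).

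**Figure D1:**
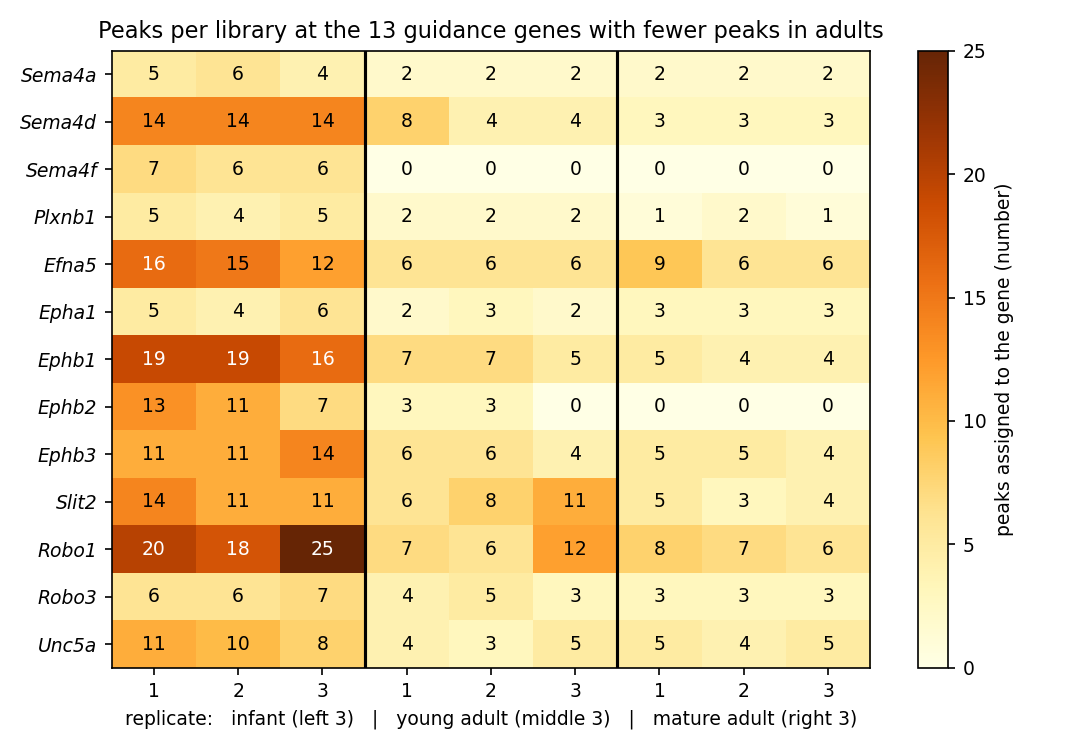
Number of peaks assigned to each of the 13 guidance genes called lower in young adult or mature adult than in infant libraries (genes in lines, the 9 libraries in columns grouped by age, colour and printed number giving the peaks). Sema4f has 6 or 7 peaks in each infant library and 0 in every adult library, and Ephb2 has 0 in every mature adult library.

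Among semaphorins, 3 of the 19 tested genes were called lower at each adult age, and all belonged to class 4, whose members span the membrane. The share of all genes called lower was 9.26% in young adults and 13.8% in mature adults. Sema4d, the ligand of plexin-B1, had 14 peaks in each infant library, 8, 4 and 4 in young adult libraries and 3 in each mature adult library. The ages did not overlap, and peaks covered 7.28 kb on average in infants, 2.10 kb in young adults and 1.26 kb in mature adults. The log2 difference from infants was -0.98 ± 0.24 (SE) scaled in young adults (limma adjusted p = 0.0144) and -1.55 ± 0.24 scaled in mature adults (limma adjusted p = 0.00159). Without the 2 libraries that differed, the young adult difference of Sema4d no longer passed (limma adjusted p = 0.0639). Sema4f, a class 4 semaphorin studied mostly in the nervous system, had 7, 6 and 6 peaks in infant libraries and 0 in all 6 adult libraries. No fold is given against 0, and the limma adjusted p was 8.3e-09 for young adults and 7.9e-09 for mature adults, values made small by the near-equal numbers within each age. Sema4a, known from immune cells and also a plexin ligand, had 5, 6 and 4 peaks in infant libraries and 2 in every adult library. The scaled log2 difference of Sema4a was -0.75 ± 0.12 in young adults (limma adjusted p = 0.00191) and -0.65 ± 0.12 in mature adults (limma adjusted p = 0.00371). When each list was cut to the same number of its widest peaks, or peaks under 300 bp were left out, neither difference of Sema4a passed, the young adult call was also lost with repeated intervals counted as deposited, and over all alternatives its highest limma adjusted p was 0.235 in young adults and 0.608 in mature adults.

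Plxnb1, the receptor of Sema4d, was the 1 plexin of 9 called lower, against 9.26% of all genes in young adults and 13.8% in mature adults. It had 5, 4 and 5 peaks in infant libraries, 2 in each young adult library and 1, 2 and 1 in mature adult libraries, and adults and infants did not overlap. The scaled log2 difference was -0.67 ± 0.20 in young adults (limma adjusted p = 0.0327) and -1.08 ± 0.20 in mature adults (limma adjusted p = 0.00316). Both rest on few peaks. The young adult call was lost without any 1 of infant replicates 1 and 3 or of the 3 young adult replicates, and in most of the other alternatives. The mature adult call was lost when peaks under 300 bp were left out, on covered bases and with repeated intervals counted as deposited (highest limma adjusted p = 0.519 in young adults and 0.200 in mature adults). Class 4 as a whole, a grouping made after its values were seen, held 45, 42 and 42 peaks in infant libraries, 25, 20 and 14 in young adult libraries and 12, 15 and 13 in mature adult libraries. Class 3 semaphorins, which are secreted, held 57, 68 and 56 peaks in infant libraries, 69, 61 and 84 in young adult libraries and 65, 74 and 77 in mature adult libraries, and none of the 7 was called.

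The semaphorins with the most peaks were not called. Sema6d, a plexin-A1 ligand, had 59, 58 and 56 peaks in infant libraries, 37, 42 and 34 in young adult libraries and 29, 38 and 42 in mature adult libraries. Sema6a, a ligand of plexins A2 and A4, had 53, 51 and 47 peaks in infant libraries, 44, 43 and 45 in young adult libraries and 37, 39 and 43 in mature adult libraries. On covered bases Sema6d was called lower in young adults (limma adjusted p = 0.0382) and in mature adults (limma adjusted p = 0.0179). All adult libraries lay below all infant libraries at Sema6d and Sema6a, but after scaling Sema6a differed by 0.20 ± 0.05 in mature adults, in the opposite direction to its unscaled difference of -0.34 ± 0.06. Sema3c, a secreted semaphorin known from vessel and heart outflow development, was the gene with the most added peaks: 19, 26 and 21 in infant libraries, 34, 26 and 35 in young adult libraries and 22, 36 and 40 in mature adult libraries. The ages overlapped at Sema3c, and the difference did not pass in young adults (0.93 ± 0.23 scaled, 0.52 ± 0.25 unscaled, limma adjusted p = 0.218) or in mature adults (1.06 ± 0.23 scaled, 0.53 ± 0.25 unscaled, limma adjusted p = 0.168). Sema3c was called higher in mature adults without the 2 libraries that differed (limma adjusted p = 0.0422), without mature adult replicate 1, on covered bases (limma adjusted p = 0.0410) and with peaks under 300 bp left out, and with lists cut to the widest peaks it was called higher at both ages (limma adjusted p = 0.0120 in young adults and 0.00643 in mature adults). Sema5a, a transmembrane semaphorin with thrombospondin repeats, had 24, 20 and 27 peaks in infant libraries, 24, 24 and 29 in young adult libraries and 23, 22 and 22 in mature adult libraries. Sema3g, made by arterial endothelium, had 5 peaks in each infant library, 4, 4 and 6 in young adult libraries and 4, 5 and 5 in mature adult libraries. Plxnd1, the endothelial receptor of Sema3e, had 12 peaks in each infant library, 10, 13 and 9 in young adult libraries and 8, 12 and 10 in mature adult libraries.

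**Figure D2:**
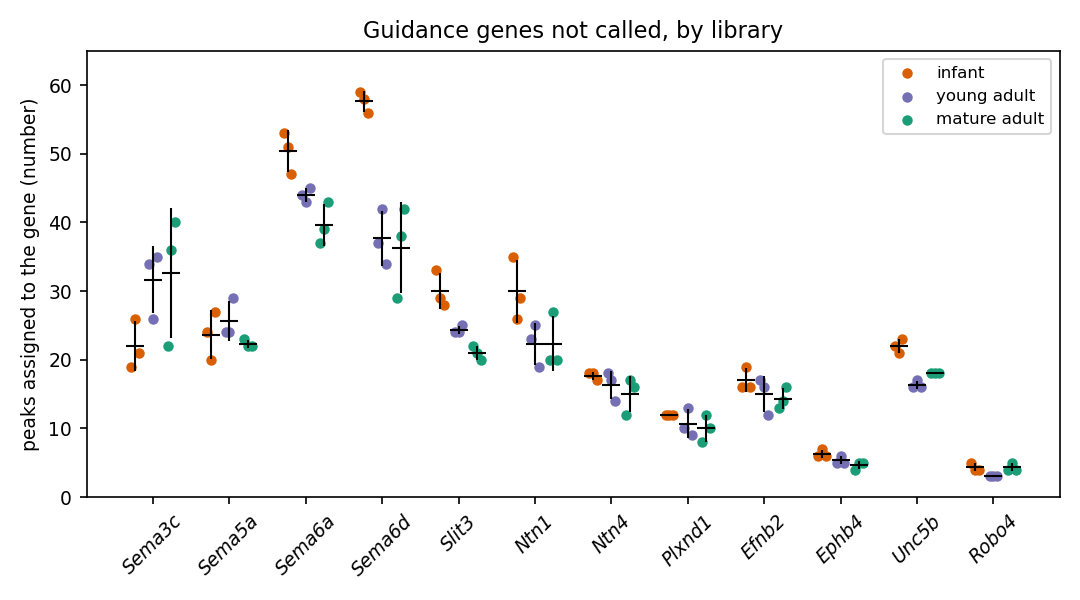
Peaks per library at 12 guidance genes that were not called, with points for libraries, a horizontal bar for the mean of the 3 libraries of an age and a vertical bar for 1 SD. All adult values of Sema6d lie below its infant values, while Sema3c spreads from 22 to 40 peaks in mature adults, over the infant range of 19 to 26.

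Eph receptors were called lower in 3 of the 11 tested genes at each adult age, and the receptors of the B subclass were the most frequent among them. Of all genes, 9.26% were called lower in young adults and 13.8% in mature adults. Ephb1, a receptor for B-type ephrins, had 19, 19 and 16 peaks in infant libraries, 7, 7 and 5 in young adult libraries and 5, 4 and 4 in mature adult libraries. Adults and infants were far apart, and the covered length was 9.09 kb in infants, 3.05 kb in young adults and 2.19 kb in mature adults. The scaled log2 difference of Ephb1 was -1.04 ± 0.16 in young adults (limma adjusted p = 0.00155) and -1.42 ± 0.16 in mature adults (limma adjusted p = 0.000231), and both passed under every alternative run. Ephb2 had 13, 11 and 7 peaks in infant libraries, 3, 3 and 0 in young adult libraries and 0 in every mature adult library. Its difference passed in mature adults (limma adjusted p = 0.00672) under every alternative run, and in young adults it did not (limma adjusted p = 0.0679). Ephb2 was also called lower in young adults without the 2 libraries that differed (limma adjusted p = 0.0247), without young adult replicate 3, on covered bases, with the widest peaks, with peaks under 300 bp left out, with an added 1 in place of 0.5 and with intervals as deposited. Ephb3, a receptor for B-type ephrins that is well known from the intestine, had 11, 11 and 14 peaks in infant libraries, 6, 6 and 4 in young adult libraries and 5, 5 and 4 in mature adult libraries. The scaled log2 difference of Ephb3 was -0.71 ± 0.19 in young adults (limma adjusted p = 0.0211) and -0.76 ± 0.19 in mature adults (limma adjusted p = 0.0135). Both calls of Ephb3 were lost when only peaks within 10 kb of the gene were counted or when repeated intervals were counted as deposited, and the young adult call also without infant replicate 3. Over all alternatives the highest limma adjusted p of Ephb3 was 0.559 in young adults and 0.841 in mature adults.

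Epha1, an A-type receptor, had 5, 4 and 6 peaks in infant libraries, 2, 3 and 2 in young adult libraries and 3 in each mature adult library. It was called lower in young adults (-0.59 ± 0.18 scaled, limma adjusted p = 0.0352) and not in mature adults (limma adjusted p = 0.525). The young adult call was lost in most of the alternatives run, and with peaks under 300 bp left out its direction turned (0.08, limma adjusted p = 0.684). Ephb4, the venous partner of ephrin-B2, had 6, 7 and 6 peaks in infant libraries, 5, 6 and 5 in young adult libraries and 4, 5 and 5 in mature adult libraries. Epha2, a receptor of ephrin-A1 present on endothelium, had 18, 17 and 16 peaks in infant libraries, 11 in each young adult library and 12, 10 and 14 in mature adult libraries. All adult libraries of Epha2 lay below the infants, and after scaling the difference was -0.19 ± 0.12 in young adults and 0.03 ± 0.12 in mature adults, neither called. With lists cut to the widest peaks Epha2 was called higher in mature adults (limma adjusted p = 0.0109), and without mature adult replicate 2 it was called lower in young adults. The 5 EphB genes together, grouped after their values were seen, held 50, 50 and 45 peaks in infant libraries, 23, 24 and 15 in young adult libraries and 16, 16 and 14 in mature adult libraries. The 9 EphA genes held 55, 52 and 48, then 36, 38 and 43, then 41, 35 and 41 peaks at the same ages.

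Of the ligands of these receptors, Efna5, a lipid-anchored ephrin, was called lower in young adults. It had 16, 15 and 12 peaks in infant libraries, 6 in each young adult library and 9, 6 and 6 in mature adult libraries. The scaled log2 difference of Efna5 was -0.78 ± 0.18 in young adults (limma adjusted p = 0.0122), a call that passed under every alternative run, and -0.48 ± 0.18 in mature adults (limma adjusted p = 0.0683). In mature adults Efna5 was called lower on covered bases (limma adjusted p = 0.000533), without the 2 libraries that differed (limma adjusted p = 0.00475), without mature adult replicate 1, with only peaks within 10 kb, with peaks under 300 bp left out and with repeated intervals counted as deposited. Its covered length was 7.92 kb in infants, 2.39 kb in young adults and 1.98 kb in mature adults. Efnb2, the arterial ephrin, had 16, 19 and 16 peaks in infant libraries, 17, 16 and 12 in young adult libraries and 13, 14 and 16 in mature adult libraries, and the ages overlapped. Efna1, a ligand of Epha2, had 6, 6 and 5 peaks in infant libraries, 6 in each young adult library and 4, 5 and 6 in mature adult libraries.

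Slits and Robo receptors held fewer peaks in adults at several genes. Slit2, a secreted ligand of Robo1 and Robo2, had 14, 11 and 11 peaks in infant libraries, 6, 8 and 11 in young adult libraries and 5, 3 and 4 in mature adult libraries. Young adults reached the infant values, and mature adults did not. Slit2 was called lower in mature adults than in infants (-0.98 ± 0.25 scaled, limma adjusted p = 0.0170), except without infant replicate 1 or with lists cut to the widest peaks (highest limma adjusted p = 0.108). Robo1 had 20, 18 and 25 peaks in infant libraries, 7, 6 and 12 in young adult libraries and 8, 7 and 6 in mature adult libraries, with 8.62 kb covered in infants, 2.73 kb in young adults and 1.78 kb in mature adults. Its scaled log2 difference was -0.92 ± 0.27 in young adults (limma adjusted p = 0.0314) and -0.99 ± 0.27 in mature adults (limma adjusted p = 0.0200). The young adult call of Robo1 was lost without any 1 of the infant libraries or of young adult replicates 1 and 2, and the mature adult call without infant replicate 3 or mature adult replicate 2 or 3. Both calls of Robo1 were also lost with lists cut to the widest peaks (highest limma adjusted p over all alternatives = 0.163 in young adults and 0.191 in mature adults). Robo3, known from nerve fibres that cross the midline, had 6, 6 and 7 peaks in infant libraries, 4, 5 and 3 in young adult libraries and 3 in each mature adult library. Its call in mature adults (-0.47 ± 0.16 scaled, limma adjusted p = 0.0494) was lost in most of the alternatives run. Robo2 was not called on peak numbers: it had 20, 17 and 26 peaks in infant libraries, 6, 8 and 20 in young adult libraries and 13, 5 and 10 in mature adult libraries, and its highest value at each adult age came from one of those that differed. On covered bases Robo2 was called lower in mature adults (limma adjusted p = 0.0256). Robo4, the Robo receptor of endothelium, had 5, 4 and 4 peaks in infant libraries, 3 in each young adult library and 4, 5 and 4 in mature adult libraries. Slit3, which like Slit2 is secreted, had 33, 29 and 28 peaks in infant libraries, 24, 24 and 25 in young adult libraries and 22, 21 and 20 in mature adult libraries, and its scaled difference from infants was not called (0.12 ± 0.07 in young adults and 0.04 ± 0.07 in mature adults).

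Netrins were not called, and 1 of their 4 Unc5 receptors was, in young adults, where 9.26% of all genes were called lower. Unc5a, a repulsive netrin receptor, had 11, 10 and 8 peaks in infant libraries, 4, 3 and 5 in young adult libraries and 5, 4 and 5 in mature adult libraries. The scaled log2 difference of Unc5a was -0.79 ± 0.19 in young adults (limma adjusted p = 0.0151) and -0.46 ± 0.19 in mature adults (limma adjusted p = 0.0932), and the young adult call was lost without infant replicate 1 or 2, with only peaks within 10 kb of the gene and with peaks under 300 bp left out. In mature adults Unc5a was called lower on covered bases (limma adjusted p = 0.00394) and with repeated intervals counted as deposited. Unc5b, the Unc5 receptor of endothelium, had 22, 21 and 23 peaks in infant libraries, 16, 17 and 16 in young adult libraries and 18 in each mature adult library. In mature adults Unc5b was lower in number (-0.28 ± 0.04) and higher in share (0.25 ± 0.06), so it was not called in either direction. With lists cut to the widest peaks its young adult difference was positive (0.27, limma adjusted p = 0.0122). Ntn1, the founding netrin, had 35, 26 and 29 peaks in infant libraries, 23, 25 and 19 in young adult libraries and 20, 27 and 20 in mature adult libraries. Ntn4, a netrin of basement membranes, had 18, 18 and 17 peaks in infant libraries, 18, 17 and 14 in young adult libraries and 12, 17 and 16 in mature adult libraries.

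**Figure D3:**
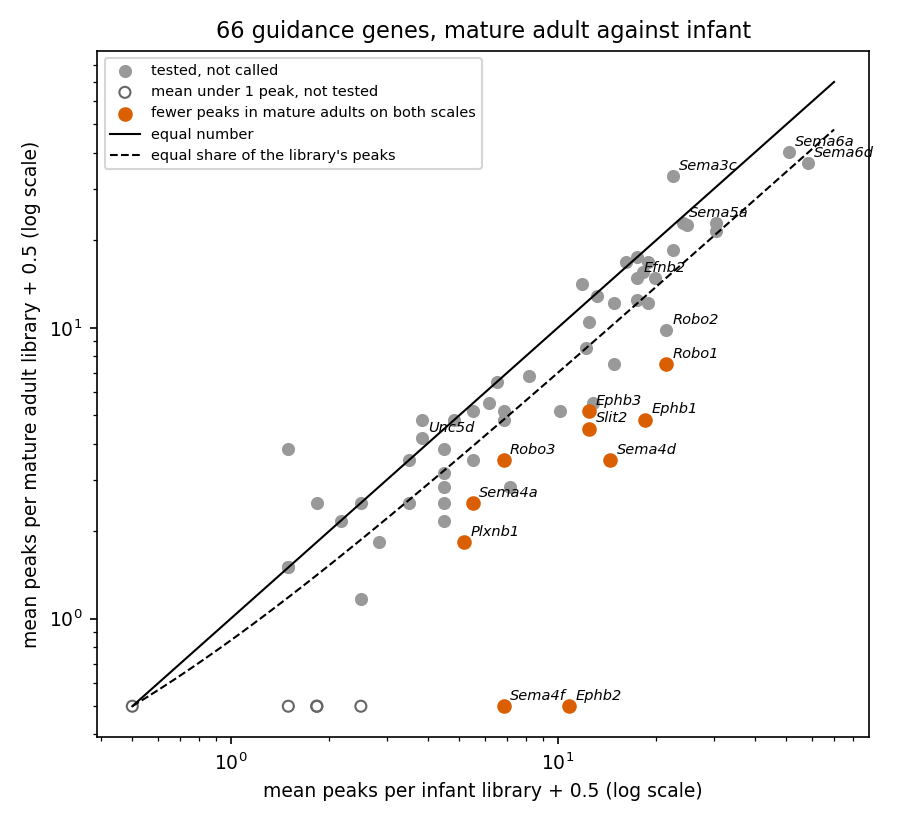
Mean number of peaks plus 0.5 at each of the 66 guidance genes in mature adult libraries (vertical, log scale) against infant libraries (horizontal, log scale), where filled orange points are genes called lower and open points were not tested. The 10 called genes lie below both the solid line of equal number and the dashed line of equal share, while Sema3c lies above both.

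Set family against family, the ratio of mature adult to infant peaks was 0.449 for Robo receptors, 0.543 for Eph receptors and 0.587 for slits. After scaling to each library's total number of peaks these ratios stayed below 1 (0.659, 0.796 and 0.861). They also did so with lists cut to the widest peaks (0.696, 0.850 and 0.874). Such ratios pool the peaks of a family, so genes with many peaks weigh most, and members did not all move alike. Robo1 averaged 21 peaks in infants and 7 in mature adults, while Robo4 averaged 4.33 at both ages. Slit2 was called lower in mature adults, while the scaled difference of Slit3 was 0.04 ± 0.07. The remaining families had ratios of 0.718 to 0.797 in number. Semaphorins, plexins, netrins and Unc5 receptors turned above 1 on both other scales (1.06 to 1.23), and ephrins turned above 1 after scaling (1.06) and not with the widest peaks (0.972). Unc5 receptors held 35, 24 and 25 peaks in mature adult libraries, the highest in replicate 1, which differed from the rest. Without mature adult replicate 1 and young adult replicate 3 the Unc5 ratio in number was 0.628, against 0.718 with all libraries. The scaled ratio was not computed without them. Robo receptors held 51, 45 and 62 peaks in infant libraries, 20, 22 and 38 in young adult libraries and 28, 20 and 23 in mature adult libraries. Eph receptors held 105, 102 and 93, then 59, 62 and 58, then 57, 51 and 55 peaks at the same ages. No test was made between families. Among the 28 tested genes whose numbers are not given one by one, peak numbers ran from 0 to 25 per library, and the mature adult mean was below the infant mean at 17, above it at 4 and equal at 7. The 5 genes under the minimum were Efnb3 (2 peaks in each infant library, 0, 1 and 0 in young adult and 0 in mature adult libraries), Epha5 (1 in each infant library and 0 or 1 in adult libraries), Epha8 (2, 2 and 0 in infant libraries and 0 in adult libraries), Sema4g (1, 1 and 2 in infant libraries, 2, 0 and 0 in young adult and 0 in mature adult libraries) and Epha10, which had none in any library. Longer genes collected more peaks, with a Spearman coefficient of 0.44 across the 66 genes and 0.48 across all tested genes, given as a description.

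The second question was where in these genes the open sites differed. Overlapping peaks of all libraries were merged into regions, of which 1103 fell to guidance genes and 111753 to any gene. A peak in all 9 libraries was present at 312 of the guidance regions (28.3%, against 34.6% of all regions). Peaks in all 3 infant and no adult libraries marked 103 regions at 38 genes (9.34%, against 9.46%), and peaks in all 6 adult and no infant libraries marked 10 regions at 5 genes (0.907%, against 0.716%). Regions shared by all infant and young adult libraries and absent from mature adults numbered 2, at Robo2 and Slit2 (0.598% of all regions), and none was open in mature adults only (0.116% of all regions). The 13 called genes held 39 infant-only regions among 199 (19.6%) and the 48 other tested genes 63 among 898 (7.02%), given as a description, since the calls rest on the same peaks. By family, infant-only regions made up 13.6% of the 66 Unc5 regions, 13.1% of the 107 Robo regions, 12.3% of the 146 Eph regions and 7.09% of the 423 semaphorin regions. Robo receptors also had the lowest share of regions open in all 9 libraries, at 9.35%. Most Robo regions lay at the long genes Robo1 (1020 kb) and Robo2 (1555 kb), where 1 of 44 and 3 of 51 were open in all 9 libraries. At Robo3 it was 3 of 7 and at Robo4 3 of 5, so the low share was not common to the family.

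**Figure D4:**
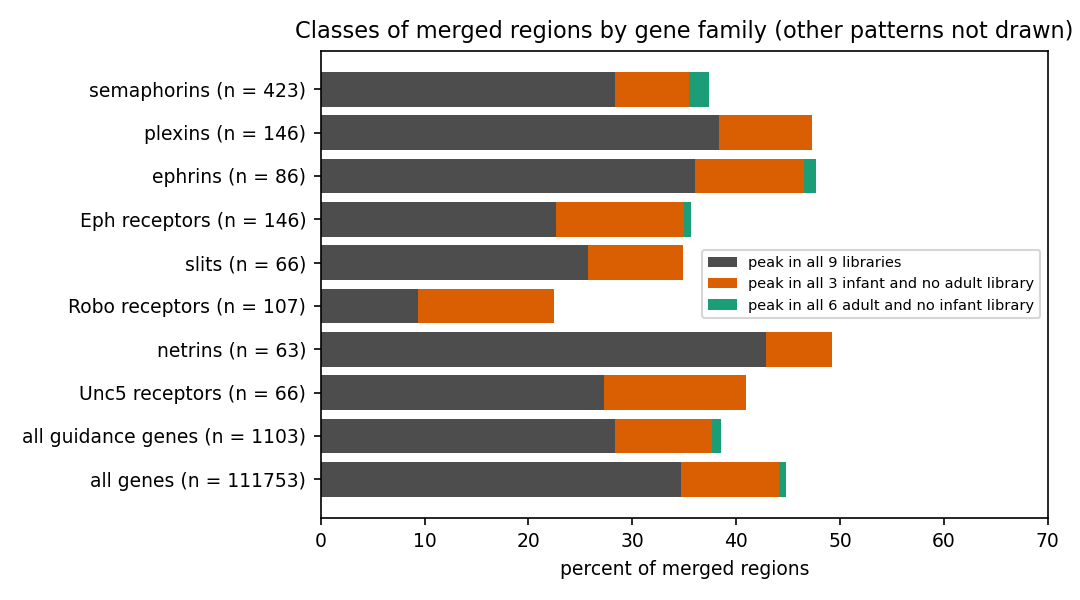
Percent of merged regions with a peak in all 9 libraries, in all infant and no adult libraries, or in all adult and no infant libraries, for each gene family, the 66 guidance genes and all genes (bars stacked from 0, n giving the regions). Robo receptors, with most of their regions at Robo1 and Robo2, have the shortest dark bar (9.35%), and adult-only regions appear at semaphorins, ephrins and Eph receptors.

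Infant-only regions of guidance genes mostly lay far from starts. Of the 90 with an annotated start to measure from, 2.22% lay within 1 kb of it, against 6.98% of infant-only regions of all genes, and their median distance was 46.2 kb against 34.4 kb. Of the regions open in all 9 libraries, 17.7% lay within 1 kb of a start at guidance genes, against 28.8% at all genes, so greater distance was not particular to infant-only regions. Median gene length was 42.3 kb for the 66 genes and 25.6 kb for all tested genes. The part of gene length in these distances was not tested. Inside the gene body lay 60.2% of infant-only guidance regions, against 58.8% of those of all genes. The table of genes gives no exons or introns, so positions are given only relative to the gene body.

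The infant-only regions with the widest peaks were at called and uncalled genes alike. The widest by rank was inside Ephb2 at chr4:136652518-136653558, 182974 bp from the start of the gene, with 1010, 923 and 972 bases covered in the infant libraries and 0 in adults. Next came a region inside Unc5a at chr13:54993940-54995019, with 1074, 923 and 857 bases covered in infants. Then came a region inside Epha3, an A-type Eph receptor, at chr16:63856829-63857917, 6802 bp from the start, with 1088, 917 and 757 bases covered. Robo2 followed with a region inside the gene at chr16:74054840-74055856 (824, 815 and 1016 bases). Ephb1 had such regions inside the gene at chr9:102193529-102194672 (1094, 916 and 530 bases) and beyond its end at chr9:101862328-101863295 (634, 533 and 967 bases). Ephb3 had one at chr16:21192473-21193253 (775, 711 and 701 bases), 11932 bp before the start. Sema6a had one at chr18:47201314-47202138 (776, 814 and 701 bases), outside the gene. Regions outside a gene are tied to it by distance alone.

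At Ephb2, none of 16 regions was open in all 9 libraries, 3 were infant-only and 1 of these spanned the start. At Sema4f, none of 9 regions was open in any adult library, and 4 were in all 3 infant libraries, from 26262 to 54630 bp after the start. Of these 4, only the nearest to the start lay inside the gene. The others lay 9089.5 to 26745 bp beyond its end and are tied to it by distance alone. At Sema4d, 4 of 17 regions were infant-only and 2 were open in all 9 libraries. At Ephb1, 4 of 22 were infant-only and 4 were open throughout, among them the start. Robo1 and Sema6d had the most infant-only regions, 8 each, out of 44 and 80.

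**Figure D5:**
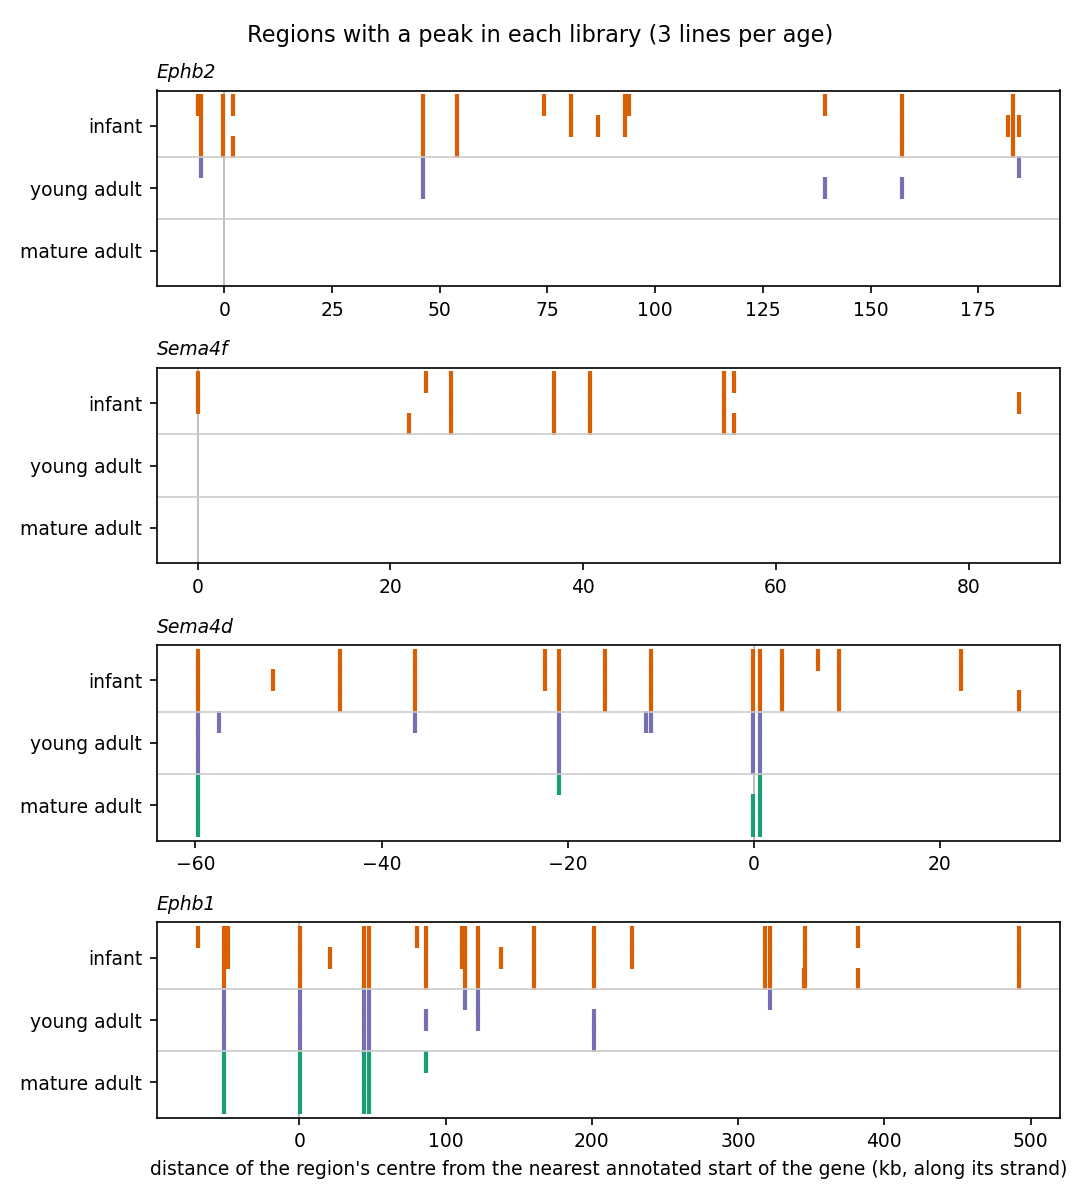
Regions with a peak in each library at Ephb2, Sema4f, Sema4d and Ephb1, drawn by distance from the nearest annotated start of the gene in kb along its strand, with 3 lines per age from replicate 1 at the top to replicate 3. Mature adult lines are empty at Ephb2 and Sema4f, and at Ephb1 the start and 3 more regions carry peaks at all ages.

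Regions gained in adults were few and lay at genes that were not called. Sema5a held 4 of the 10, all inside the gene, 41853 to 130519.5 bp from the start. The widest by rank, at chr15:32374989-32375676, was covered over 0 bases in infants, 656, 533 and 542 bases in young adults and 365, 676 and 556 bases in mature adults. Another, at chr15:32330113-32330861, was covered over 630, 559 and 421 bases in young adults and 342, 676 and 527 bases in mature adults. Sema3a, a secreted repellent that binds neuropilin-1, and Sema7a, a lipid-anchored semaphorin, had 2 each inside the gene, and Efnb2 had 1 inside the gene at chr8:8620588-8620881 (247, 276 and 233 bases in young adults and 273, 255 and 286 in mature adults). Epha4, a receptor that binds ephrins of both types, had 1 at chr1:77535121-77535600, 20272.5 bp before its start. With lists cut to the same number of widest peaks, adult-only regions made up 3.69% and infant-only regions 5.60% of guidance regions, against 3.22% and 4.72% of all regions.

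The last comparison set mature adults against young adults. None of the 61 genes was called in either direction, against 0.0969% of all genes higher and 0.644% lower. At an unadjusted p under 0.05 on both scales there were 6 guidance genes and 1046 of all genes. The smallest adjusted p was 0.187, at Robo4. All mature adult libraries lay above all young adult libraries at Robo4 and Unc5b (0.609% of all genes) and below them at Sema4d, Sema5a, Slit2 and Slit3 (4.39%). Slit2 had 5, 3 and 4 peaks in mature adults, against 6, 8 and 11 in young adults (-0.85 ± 0.25 scaled, limma adjusted p = 0.265, and 0.0482 on covered bases). Without the 2 libraries that differed, 5 guidance genes were called: Sema3g and Unc5d higher (0.743% of all genes) and Ephb1, Ephb2 and Ntn3 lower (2.17%) in mature adults, while the calls among all genes came to 427 against 107 with all libraries. Ephb1 then had a scaled log2 difference of -0.66 (limma adjusted p = 0.0306). With 2 libraries left at each adult age, these calls can rest on very few peaks. Sema3g then had 5 peaks in each remaining mature adult library, against 4 in each remaining young adult library (limma adjusted p = 0.0469). Unc5d, an Unc5 receptor, then had 1 peak in each remaining mature adult library, against 0 in each remaining young adult library. Ntn3, a netrin, had 2 peaks in each mature adult library, against 3, 3 and 2 in young adults.

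Other genes of the guidance pathways, taken as a list of 64 co-receptors, further ligands and cytoplasmic partners of which 63 were found and 60 tested, are given next. In young adults 10 of the 60 were lower and none higher than in infants, and in mature adults 13 were lower and none higher, against the 9.26% and 13.8% of all genes called lower. Nrp2, the neuropilin of lymphatic and venous endothelium that Sema3 ligands bind, had 21, 21 and 17 peaks in infant libraries, 9, 10 and 7 in young adult libraries and 6, 6 and 7 in mature adult libraries (limma adjusted p = 0.00415 in young adults and 0.000581 in mature adults). Nrp1, the other neuropilin, had 32, 29 and 30 peaks in infant libraries, 25, 27 and 30 in young adult libraries and 24, 27 and 27 in mature adult libraries and was not called. Met, a receptor kinase that associates with plexin-B1, had 14, 16 and 13 peaks in infant libraries, 4, 6 and 5 in young adult libraries and 5, 4 and 4 in mature adult libraries (limma adjusted p = 0.00186 and 0.00116 at the same ages). Cxcr4, the chemokine receptor that guides cells and vessels, had 16, 16 and 15 peaks in infant libraries, 13, 10 and 10 in young adult libraries and 7 in each mature adult library, and was lower in mature adults (limma adjusted p = 0.00268). Flrt1, a membrane protein of the family that binds Unc5 receptors, had 11, 12 and 11 peaks in infant libraries, 1, 0 and 0 in young adult libraries and 1, 2 and 2 in mature adult libraries. Among cytoplasmic partners, Fyn, a kinase downstream of plexins and Ephs, had 48, 42 and 44 peaks in infant libraries, 26, 28 and 19 in young adult libraries and 16, 19 and 19 in mature adult libraries. Tiam1, an activator of Rac, had 32, 31 and 29, then 20, 19 and 16, then 13, 15 and 16 peaks at the same ages. Ngef, an exchange factor that acts under EphA4, had 4, 4 and 3 peaks in infant libraries and 1 in every adult library. Ptprf and Gpc1 were called lower at both adult ages, Flrt2 and Rnd1 in young adults, and Rgma, Srgap3, Vav2 and Pak1 in mature adults. The difference between the adult ages was not called at any of these 60 genes.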

How the data were processed

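The measurements are ATAC-seq peaks of 9 libraries, grouped by their titles into 3 infant, 3 young adult and 3 mature adult libraries of mouse lung endothelial cells. Per the file headers, each list the authors deposited holds only peak positions (chromosome, start and end), without heights, scores, p-values or reads. Cutadapt, Bowtie2 and Picard (no versions) and build mm10 are named per the submitters' processing notes. Caller, threshold and read shift were not given in the sources used here, nor is the base (0 or 1) from which starts count.

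Repeated intervals were counted once. Peaks were assigned to genes of RefSeq GRCm38.p6, the same build as mm10, by the gene body holding the centre (the gene with the nearest end where several did) or the nearest end within 100 kb. The test was limma 3.58.1 (R 4.3.3, moderated, with a mean-variance trend) on log2(peaks + 0.5), fitted to all 9 libraries and to the 14448 genes averaging at least 1 peak, scaled to the library's total and unscaled, and checked on simulated data. Changes on that scale understate those of genes with few peaks, and near-equal numbers within an age leave little spread, so that a small change can have a very small p. With depth unknown, no detection limit was set, and the lack of a peak does not show closed chromatin. Regions are unions of peaks that overlap by 1 bp or more, and a region counts for each library with a peak in it. Other steps ran in Python 3.11.15 (pandas 2.3.3, numpy 2.4.6, matplotlib 3.10.9, scipy 1.17.1). Promoter sequences were matched by symbol in 57 of 66 genes, without Slit1, Sema3b, Sema3f, Sema6a, Efnb3, Ntn1, Unc5d, Plxna1 and Plxna4.

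The genes, lists and tests were chosen with earlier results of these data known. Named one by one are the called genes, the 6 uncalled with the most peaks, and Plxnd1, Efnb2, Ephb4, Robo4, Unc5b, Sema3g, Sema3c, Epha2, Efna1 and Ntn4. A few further genes (Robo2, Epha3, Sema3a, Sema3d, Sema7a, Epha4, Unc5d, Ntn3 and those under the minimum) are named for a region, a promoter or a small count, with their values seen. Alternatives were scaled or unscaled numbers alone, intervals as deposited, peaks within 10 kb, equally many widest peaks, peaks of at least 300 bp, no minimum, an added 1, covered bases, a replicate block, and libraries left out.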

Additional observations from a re-analysis of the deposited data

How the results depend on the processing

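With all 9 libraries, 1501 genes were called between young adults and infants, 2205 between mature adults and infants and 107 between mature and young adults, and 10, 10 and 0 guidance genes. On scaled numbers alone these were 5053 and 6339 genes (22 and 25 guidance genes) for the comparisons with infants, and on unscaled numbers alone 2690 and 4451 (17 and 23). For mature adults against infants, the guidance genes called were 19 with equally many widest peaks (11 higher, 8 lower), 19 on covered bases (2 higher, 17 lower) and 16 without both mature adult replicate 1 and young adult replicate 3 (1 higher, 15 lower). Between mature and young adults, 1 guidance gene was called with the widest peaks, Slit1, lower (0.484% of all genes lower and 0.271% higher). On covered bases 1 was called, Slit2, lower (0.533% of all genes lower and 0.00692% higher). Without both libraries 5 were called (2.17% of all genes lower and 0.743% higher). All genes called there numbered 69 with intervals as deposited and 427 without both libraries. Leaving out 1 library gave 1036 to 1652 genes and 6 to 10 guidance genes for young adults against infants, 1554 to 2542 and 8 to 13 for mature adults against infants, and 87 to 361 and 0 to 2 between the adult ages. The 6 came without infant replicate 1 or 3, and 361 and 2 without young adult replicate 3. Without mature adult replicate 2 they were 178 and 1. Infant-only regions were 9.34% of guidance regions, 5.60% with the widest peaks, 11.3% without both libraries and 9.81% to 12.5% without 1 library. Adult-only regions were 0.907%, 3.69% with the widest peaks and 0.925% to 1.31% without 1 library. Reversed in direction were, among the genes named by the rule, Unc5b in young adults with the widest peaks (0.27) and Epha1 in young adults with peaks of at least 300 bp (0.075). Among the others, Sema6b was -0.50 unscaled and -0.003 scaled in mature adults with all peaks and was not called. With the widest peaks it was called higher there (0.94, limma adjusted p = 0.0290). Same-numbered libraries of different ages deviated together with correlations of -0.17 to 0.17, and differently numbered ones with -0.23 to 0.28. These correlations cannot tell whether same-numbered libraries were handled together, and the labels do not say. With a replicate block the calls were 1293, 2029 and 54 genes, and 8, 9 and 0 guidance genes. The cause of these shifts was not tested. Depth, unknown here, limits every statement on a missing peak.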

Other observations

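Several guidance genes had their highest value at each adult age in young adult replicate 3 and mature adult replicate 1. Among them were Robo1, which was called lower at both adult ages, and Robo2 and Sema3a, which were not called on peak numbers. Of the others, Unc5d, Epha6 and Epha3 are given here. Unc5d, an Unc5 receptor, had 0, 0 and 4 peaks in young adult libraries and 9, 1 and 1 in mature adult libraries, beside 4, 3 and 3 in infant libraries. Epha6, an A-type Eph receptor, had 1 peak in each infant library, 1, 2 and 4 in young adult libraries and 6, 2 and 2 in mature adult libraries. Epha3, another A-type receptor, had 6, 6 and 8 peaks in infant libraries, 1, 2 and 6 in young adult libraries and 3, 1 and 3 in mature adult libraries. At each of these genes young adult replicate 3 held the most young adult peaks, and mature adult replicate 1 held the most mature adult peaks or shared the highest number. Unc5d, Epha6 and Epha3 were not called with all libraries on peak numbers. Without both libraries Unc5d had 0 peaks in each remaining young adult library and 1 in each remaining mature adult library. It was then called lower than in infants in young adults (limma adjusted p = 0.000228) and in mature adults (-0.94, limma adjusted p = 0.00305). Of all genes, 10.2% and 15.4% were called lower in that setting. Since Unc5d is named for its high values in the libraries left out, these calls follow from that choice and are no separate support. On covered bases Epha3 was called lower in young adults (limma adjusted p = 0.0342) and mature adults (limma adjusted p = 0.00927), and Epha6 higher in mature adults (limma adjusted p = 0.00975). With lists cut to equally many widest peaks Epha6 was called higher in young adults (limma adjusted p = 0.0385) and mature adults (limma adjusted p = 0.00629).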
